A study of Homo sapiens with 4 samples.

Results

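The aryl hydrocarbon receptor (AHR) and its core genes were examined in ES2 cells, an established line of human ovarian cancer cells, after 24 h with vehicle or liquiritigenin (Liq). The 9 genes were taken by symbol from the count tables: AHR, its repressor AHRR, the partners ARNT and ARNT2, and the target genes CYP1A1, CYP1A2, CYP1B1, TIPARP and CYP2S1. All 9 symbols were among the 23228 genes listed, and 7 of the 9 had enough reads to be among the 13546 genes tested. Liq is a plant flavanone that the study used as an agonist of estrogen receptor beta, at 100 μM according to its methods, in phenol red-free medium with charcoal-treated serum that both groups shared. There were 2 samples per group, and the labels do not say whether these came from separate cultures, so the p-values measure the spread between these samples, which may be technical.

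AHR is a ligand-activated transcription factor of the bHLH-PAS family that waits in the cytosol in a complex with HSP90 and p23. Ligands such as dioxins, polycyclic hydrocarbons, tryptophan metabolites and some plant flavonoids release it to the nucleus. There it pairs with ARNT and binds the xenobiotic response element, whose core is GCGTG. The genes it induces include the cytochrome P450 enzymes CYP1A1, CYP1A2 and CYP1B1, and also AHRR and TIPARP, both of which feed back to limit the receptor.

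Liq-treated ES2 cells had more AHR mRNA and less mRNA of AHRR, TIPARP and CYP1B1 than vehicle-treated cells. AHR was 1.68-fold higher in Liq, while AHRR was 2.24-fold, CYP1B1 2.32-fold and TIPARP 1.59-fold lower. The partners ARNT and ARNT2 and the target CYP2S1 did not pass the test. CYP1A1 was near the detection limit and CYP1A2 had no reads, so neither was tested. A gene is called here at a fold change of at least 1.5 with an adjusted p-value under 0.05, from edgeR's quasi-likelihood test with Benjamini-Hochberg adjustment over all tested genes. By this rule 1 of the 7 tested members rose and 3 fell, against 4.29% of all tested genes that rose, 2.16% that fell and 6.45% in either direction. With an adjusted p-value under 0.05 at any fold the same 4 members passed, against 24% of all tested genes.

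Between 34573053 and 48933893 reads per sample fell on genes, and 3 counts, taken as the smallest level the data can show, correspond to 0.0598 to 0.0844 CPM. CPM is a gene's count relative to all counts on genes in the same sample, scaled between samples by the TMM method, and log2 fold changes are Liq over vehicle with their standard error (SE). The line was checked against markers. The mesenchymal genes VIM and CDH2 and the epithelial keratins KRT7, KRT8 and KRT18 were read at 871 to 312656 counts per sample, whereas the epithelial genes EPCAM and CDH1, the ovarian antigen MUC16 and the clear cell marker NAPSA had 0 to 8 counts in any sample. Both tested Müllerian factors fell, PAX8 with a log2 fold change of -1.34 and WT1 with one of -0.68 (edgeR adjusted p = 0.002137 and 0.002849). PAX8 had only 49 and 46 counts in vehicle and 12 and 29 in Liq. Its log2 fold change ran from -1.83 to -1.06 over the 11 alternative fits. Without vehicle replicate 2 the log2 fold change of WT1 was -0.56, under 1.5-fold. Markers of blood, endothelial, liver and islet cells stayed between 0 and 10 counts. ESR2, the receptor that Liq was used to activate, had 4 and 7 counts in vehicle and 5 and 14 in Liq. Among all genes, 581 rose and 293 fell, but with offsets that follow the expression level the split was 356 and 393.

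AHR, on chromosome 7 (hg19, canonical transcript from 17338276 to 17385771, plus strand, 11 exons), was measured at 20.1 and 18.8 CPM with vehicle and at 30.2 and 34.9 CPM with Liq. Both Liq samples lay above both vehicle samples. With 2 samples against 2, the exact two-sided permutation test gives p = 0.33 for such a separation, here and for the genes below. The share of all genes that separate was not counted. The mean rose from 19.4 ± 0.9 to 32.5 ± 3.3 CPM (SD, n = 2), and the log2 fold change was 0.75 (SE 0.10, edgeR adjusted p = 2.535e-06). Of all tested genes, 5.96% had a larger change in either direction. AHR stayed called in all 11 alternative fits, with log2 fold changes of 0.64 to 0.84. An unnamed protein-coding model of the annotation, not listed in the count tables, shares 2373 exon bases with AHR on the same strand. In bulk RNA such as this, a change in RNA per cell and a change in the share of cells that express a gene cannot be told apart.

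AHRR encodes a protein that resembles AHR but lacks its ligand response, competes with it for ARNT and represses its targets. It lies on chromosome 5 (from 321829 to 438400, plus strand, 11 exons) and was measured at 36.5 and 40.9 CPM in vehicle and at 18.5 and 16.2 CPM in Liq. The groups did not overlap, and the higher Liq sample was still below the lower vehicle sample. The log2 fold change was -1.16 (SE 0.10, edgeR adjusted p = 1.393e-09), which ranked 60th of the 13546 genes by p-value. Across the 11 alternative fits it stayed called, between -1.26 and -1.06. A read-through transcript of the neighbouring gene, PDCD6-AHRR, shares exons with AHRR in the GENCODE annotation and is not listed in the count tables, so its reads cannot be told apart from those of AHRR.

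AHR and AHRR thus moved in opposite directions, and the order of their levels changed. The log2 ratio of AHRR to AHR counts within a sample needs no scaling between libraries. It was 0.86 and 1.12 with vehicle and -0.71 and -1.11 with Liq. AHRR had more reads than AHR in both vehicle samples and fewer in both Liq samples. The difference of -1.90 corresponds to a 3.73-fold lower ratio. With 2 samples against 2, the exact two-sided permutation test gave p = 0.33, which is the smallest it can give in this design.

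**Figure D1:**
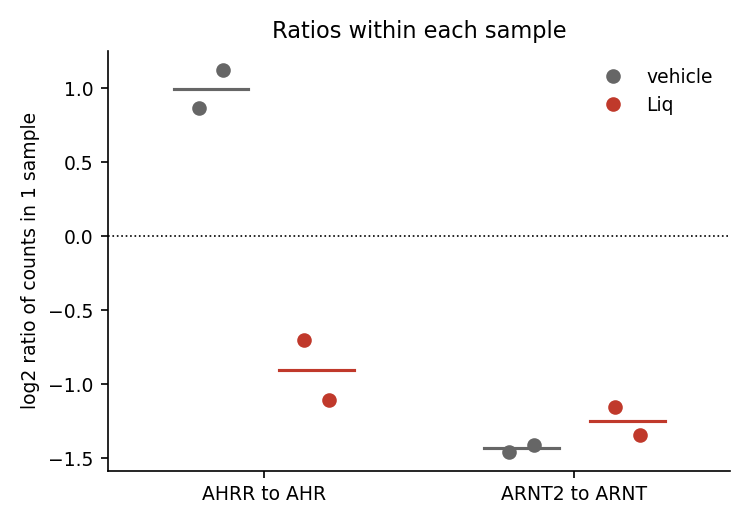
Log2 ratio of read counts within each sample, AHRR to AHR and ARNT2 to ARNT, for vehicle (grey) and Liq (red) samples, with points for the 2 samples of each group and a line at their mean. The AHRR to AHR ratio lies above 0 in both vehicle samples and below 0 in both Liq samples, while the ARNT2 to ARNT ratio stays between -1.46 and -1.15.

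TIPARP encodes a mono-ADP-ribosyltransferase that modifies AHR and dampens its activity. The gene is on chromosome 3 (from 156392379 to 156424559, plus strand, 6 exons) and had the most reads of the target genes, with 67.4 and 71.0 CPM in vehicle and 42.2 and 45.0 CPM in Liq. Both Liq samples were lower than both vehicle samples. The log2 fold change was -0.67 (SE 0.08, edgeR adjusted p = 8.854e-07). The call lies close to the fold threshold of 0.585 on the log2 scale, and the 95% interval of the change, -0.83 to -0.50, reaches past it. In all 11 alternative fits TIPARP was still called, between -0.71 and -0.62. The antisense gene TIPARP-AS1 had 60 and 54 counts in vehicle and 67 and 79 in Liq (log2 fold change 0.24, edgeR adjusted p = 0.4676) and did not pass the test.

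CYP1B1 encodes an extrahepatic P450 that oxidizes polycyclic hydrocarbons and hydroxylates estradiol. On chromosome 2 (from 38294652 to 38303293, minus strand, 3 exons) it was read 33 and 29 times in vehicle and 12 and 17 times in Liq. After scaling these were 0.80 and 0.77 CPM against 0.337 and 0.339 CPM, and the groups did not overlap. The log2 fold change was -1.22 (SE 0.35, edgeR adjusted p = 0.01224), with a 95% interval of -1.93 to -0.50. At these counts the call depended on the test and on single libraries. The adjusted p-value was 0.1418 with the DESeq2 Wald test, and in edgeR it was 0.1162 without vehicle replicate 1, 0.07949 without vehicle replicate 2 and 0.0511 without Liq replicate 2. The log2 fold change stayed between -1.45 and -1.19 in all 11 alternatives, whose adjusted p-values ranged from 0.003634 to 0.1418. CYP1B1 shares exon sequence with the antisense gene CYP1B1-AS1, which had 4 and 1 counts in vehicle and 1 in each Liq sample, and the sources used here do not say whether the counting used strand.

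CYP1A1 encodes the P450 that is the classical readout of AHR activity. It had 6 and 2 counts with vehicle and 1 count in each Liq sample, on chromosome 15 from 75011883 to 75017869 (minus strand, 7 exons). Only vehicle replicate 1 was above the limit of 3 counts. The summed counts of 8 against 2 give a Liq to vehicle ratio of 0.23 with an exact (Clopper-Pearson) 95% interval of 0.024 to 1.15, which includes no change and covers counting error only. The exact two-sided permutation test over samples gave p = 0.33, the smallest possible, and edgeR without the filter on low counts gave an adjusted p of 0.3599. CYP1A2, the neighbouring hepatic P450 that metabolizes caffeine and lies 23.3 kb away on the plus strand (from 75041186 to 75048948), had 0 counts in every sample, which allows a level of up to 0.0598 to 0.0844 CPM. For CYP1A1 the interval leaves out the spread between samples, so it sets no limit on a rise or a fall. In edgeR without the filter on low counts the log2 fold change of CYP1A1 was -1.99 with an SE of 1.38. Neither direction could be told from no change at this depth.

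CYP2S1, an extrahepatic P450 also induced through AHR, lies on chromosome 19 (from 41699124 to 41713444, plus strand, 9 exons). It had 11 and 18 counts in vehicle and 14 and 20 in Liq, or 0.27 and 0.48 CPM against 0.39 and 0.40 CPM. The Liq samples lay between the vehicle samples. The log2 fold change of 0.10 (SE 0.42, edgeR adjusted p = 0.8896) had a 95% interval of -0.76 to 0.95, wide enough to hold a 1.5-fold change either way, and its sign turned without vehicle replicate 1 (-0.28) and with offsets that follow the expression level (-0.14).

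ARNT, the common partner of AHR and of the hypoxia factors, was measured at 53.2 and 52.7 CPM in vehicle and at 54.6 and 56.5 CPM in Liq. On chromosome 1 (from 150782189 to 150849075, minus strand, 22 exons), it had a log2 fold change of 0.07 (SE 0.08, edgeR adjusted p = 0.5751). Its 95% interval, -0.10 to 0.23, excludes a 1.5-fold change. For ARNT, too, both Liq samples lay above both vehicle samples, though it did not pass the test. ARNT2, a paralogue best known from the nervous system, was at 19.4 and 19.8 CPM in vehicle and at 24.5 and 22.2 CPM in Liq, on chromosome 15 from 80696724 to 80890274 (plus strand, 19 exons). Both Liq samples were above both vehicle samples, but the log2 fold change of 0.25 (SE 0.10) missed the threshold (edgeR adjusted p = 0.05761, interval 0.05 to 0.45). Without Liq replicate 2 it passed at 0.33 (adjusted p = 0.01379), and with upper-quartile scaling at 0.28 (adjusted p = 0.04064), both under 1.5-fold, and over all 11 alternatives the adjusted p ranged from 0.01379 to 0.3331. The log2 ratio of ARNT2 to ARNT was -1.46 and -1.41 in vehicle and -1.15 and -1.35 in Liq, with the smallest exact permutation p of 0.33.

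**Figure D2:**
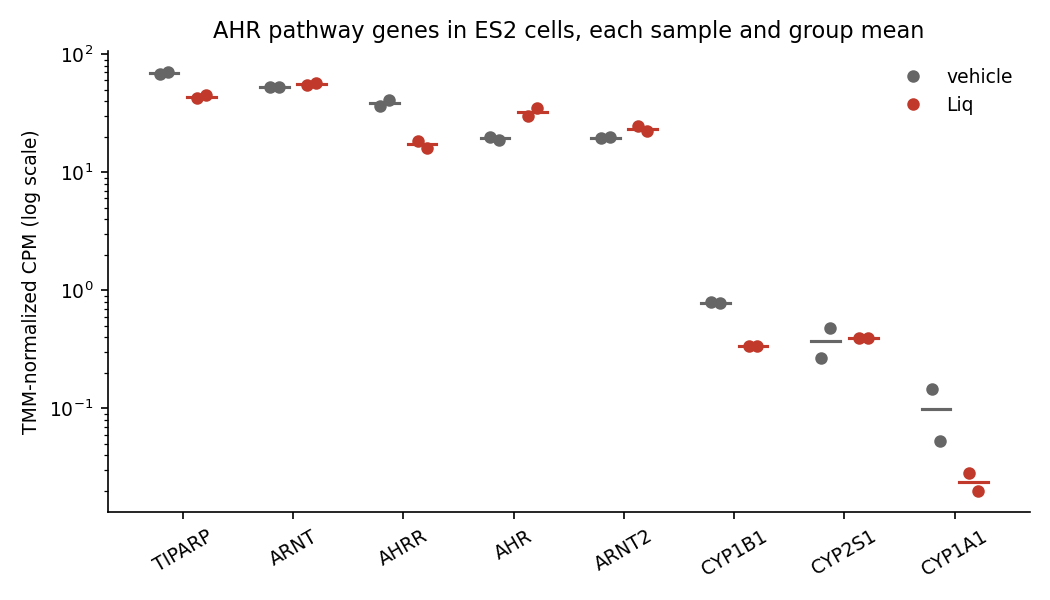
TMM-normalized CPM on a log axis for 8 of the 9 genes in each vehicle (grey) and Liq (red) sample, with a line at the group mean (n = 2). CYP1A2 had 0 counts and cannot be drawn. AHRR, TIPARP and CYP1B1 are lower and AHR is higher in both Liq samples, and the CYP genes lie below 1 CPM. ARNT and ARNT2, which were not called, are also higher in both Liq samples, and CYP1A1, which was not tested, is lower.

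**Figure D3:**
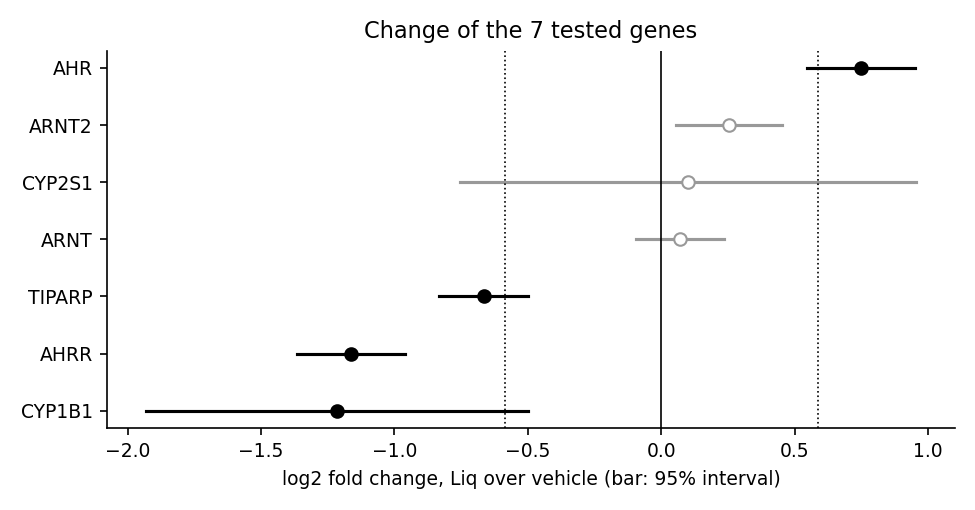
Log2 fold change of Liq over vehicle for the 7 tested genes, with bars for the 95% interval from the edgeR fit and dotted lines at 1.5-fold. Filled points were called. The intervals of ARNT, ARNT2 and AHRR lie wholly on 1 side of each dotted line, and those of AHR, TIPARP and CYP1B1 cross one, and that of CYP2S1 crosses both.

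The ratios within a sample above used counts without regard to gene length. For the order of all members, levels were divided by the length of the canonical transcript in kb. In vehicle, TIPARP was highest at 17.9 ± 0.7 CPM per kb (SD, n = 2), followed by ARNT at 11.2 ± 0.1 and AHRR at 6.84 ± 0.55. AHR at 3.11 ± 0.15 and ARNT2 at 3.0 ± 0.04 CPM per kb did not differ beyond their spread. CYP1B1 at 0.151 ± 0.004 and CYP2S1 at 0.143 ± 0.058 CPM per kb did not either, and CYP1A1 was lowest at 0.038 ± 0.025 apart from CYP1A2. In Liq, ARNT at 11.8 ± 0.3 and TIPARP at 11.3 ± 0.5 CPM per kb were within their spread of each other. AHR came next at 5.21 ± 0.53, above ARNT2 at 3.58 ± 0.25 and AHRR at 3.06 ± 0.29 CPM per kb, whose spreads met. The receptor and its partners were thus read at far higher levels than the P450 targets in both groups. With the length of all annotated exons instead, which was tried only after these values were known, the order of close pairs turned, as TIPARP lay above ARNT in Liq (9.09 and 8.61 CPM per kb) and ARNT2 above AHR in vehicle (2.53 and 2.41 CPM per kb). That of CYP1B1 and CYP2S1 in vehicle turned too (0.131 and 0.138 CPM per kb).

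**Figure D4:**
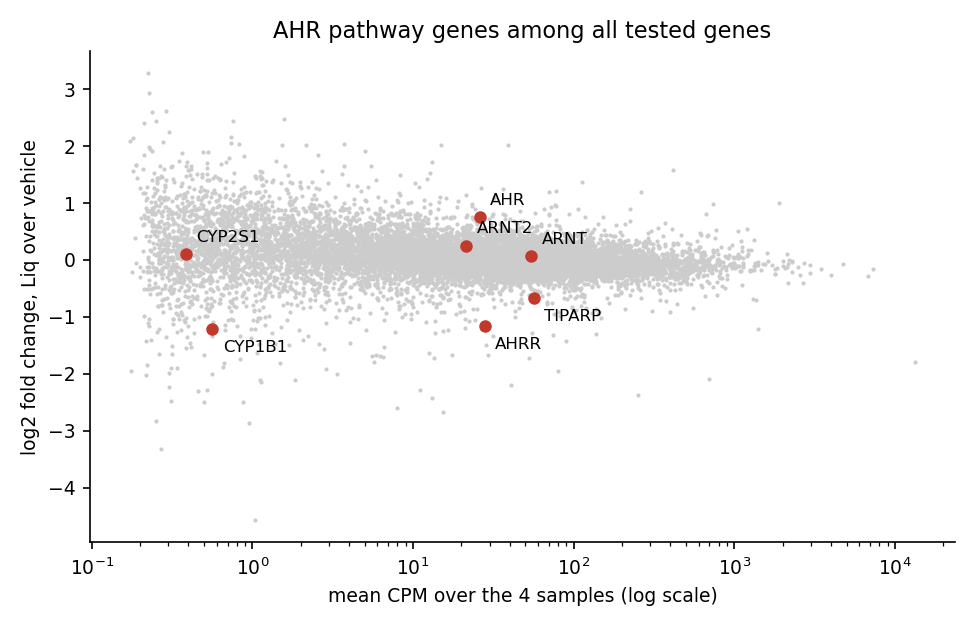
Mean CPM over the 4 samples (log axis) against the log2 fold change of Liq over vehicle for all 13546 tested genes (grey) and the 7 tested members (red). AHRR and TIPARP lie below and AHR above the bulk of genes of their level, while CYP1B1 and CYP2S1, under 1 CPM, lie where the scatter is wide.

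RefSeq (GRCh38.p14) promoters were at hand for 7 of the 9 genes, AHR, AHRR, ARNT, CYP1A1, CYP1A2, CYP2S1 and TIPARP, with 10 start sites in all. The entries missing were ARNT2 and CYP1B1. The 250 bases before each start were searched on both strands for the AHR core motif GCGTG and for the longer TNGCGTG, which contains it. Of all 35116 promoters, 32.2% held the core and 4.52% the longer form. The core was found before both listed starts of AHRR, 1 of the 3 of TIPARP and the single start of CYP1A1, and not before those of AHR, ARNT, CYP1A2 and CYP2S1. The longer form was found once, in AHRR. A match describes these letters and not a bound site, and the window leaves out all sequence farther from the start. The promoters below are shown because AHRR and TIPARP fell, CYP1A1 is the classical target and AHR itself rose. Capitals mark the core, read on either strand.
AHRR, chr5:321464-321713, plus strand, core starting 30 bases before the start: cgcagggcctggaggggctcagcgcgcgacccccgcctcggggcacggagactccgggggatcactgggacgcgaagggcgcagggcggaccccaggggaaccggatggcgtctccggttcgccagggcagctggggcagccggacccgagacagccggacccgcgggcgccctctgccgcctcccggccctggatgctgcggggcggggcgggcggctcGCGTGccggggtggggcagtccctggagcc
TIPARP, chr3:156674340-156674589, plus strand, core starting 208 and 142 bases before the start: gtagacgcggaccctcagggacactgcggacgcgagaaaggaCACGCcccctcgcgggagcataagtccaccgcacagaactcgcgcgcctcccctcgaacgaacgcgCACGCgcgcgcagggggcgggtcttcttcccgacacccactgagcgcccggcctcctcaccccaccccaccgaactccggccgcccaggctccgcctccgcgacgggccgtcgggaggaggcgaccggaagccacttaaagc
CYP1A1, chr15:74725529-74725778, minus strand, core starting 57 bases before the start: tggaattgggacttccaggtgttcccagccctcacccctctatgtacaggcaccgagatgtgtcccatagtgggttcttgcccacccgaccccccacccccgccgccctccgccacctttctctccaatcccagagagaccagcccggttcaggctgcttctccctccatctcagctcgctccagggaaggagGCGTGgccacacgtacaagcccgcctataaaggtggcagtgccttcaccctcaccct
AHR, chr7:17298402-17298651, plus strand, no core: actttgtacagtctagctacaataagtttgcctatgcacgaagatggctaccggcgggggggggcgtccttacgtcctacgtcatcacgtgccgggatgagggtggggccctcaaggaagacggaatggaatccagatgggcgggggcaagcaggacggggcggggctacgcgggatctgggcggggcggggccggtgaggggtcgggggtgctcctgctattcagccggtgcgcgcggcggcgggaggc
The AHRR window had a GC content of 79.2%, the TIPARP window 71.6%, the AHR window 66.8% and the CYP1A1 window 62.4%, against a median of 58.0% over all promoters.

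The rest of the pathway was described with lists written by hand with earlier results of these data known, so their counts are no independent evidence. Over all tested genes, 4.29% rose, 2.16% fell and 6.45% were called in either direction. Of the 4 genes of the cytosolic complex, 0 were called. The chaperone HSP90AB1 had a log2 fold change of -0.23, under 1.5-fold (edgeR adjusted p = 0.00186). The co-chaperone PTGES3 (p23) was at -0.13 and HSP90AA1 at 0.01. The median of the complex was -0.18, against 0.01 over all tested genes. Of 11 coregulators of AHR and ARNT, 0 were called and the median was -0.11. The deacetylase HDAC1 (-0.28) and the acetyltransferase EP300 (-0.24) had adjusted p-values under 0.05 below 1.5-fold, and the coactivator NCOA2 was at 0.20 (edgeR adjusted p = 0.08502).

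Of the 12 other bHLH-PAS factors, 10 were tested, 2 rose and 0 fell, against 4.29% and 2.16% of all tested genes. EPAS1 (HIF2A) had 732 and 654 counts in vehicle and 969 and 1308 in Liq, a log2 fold change of 0.59 (edgeR adjusted p = 4.34e-05). SIM1, a developmental factor named outside the rule after its values were seen, had 29 and 42 counts in vehicle and 48 and 82 in Liq (0.73, edgeR adjusted p = 0.04335). Neither call held in all alternatives: EPAS1 lost it with offsets that follow the expression level and without vehicle replicate 2 or Liq replicate 1 (lowest log2 fold change 0.56), and SIM1 with those offsets, with DESeq2 and without vehicle replicate 1 or Liq replicate 2 (lowest 0.42). HIF1A, the oxygen-regulated partner of ARNT, was at 0.20 and SIM2 at -0.48 (edgeR adjusted p = 0.01867 and 0.02103), both under 1.5-fold.

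The other xenobiotic targets of AHR did not move one way. Of 11 xenobiotic target genes, 6 were tested, 1 rose and 1 fell, against 4.29% and 2.16% of all tested genes. The median of the 6 was -0.19, against 0.01 over all tested genes. XDH, which encodes xanthine dehydrogenase, had 791 and 733 counts in vehicle and 282 and 405 in Liq, and fell by 1.28 on the log2 scale (SE 0.11, edgeR adjusted p = 9.876e-10) in all 11 alternatives too. NQO1, a quinone reductase also induced by NRF2, had 7208 and 6450 counts in vehicle and 9207 and 14917 in Liq, and rose by 0.68 (edgeR adjusted p = 1.144e-07). Without Liq replicate 2 the change of NQO1 was 0.57, just under 1.5-fold. ALDH1A3 (-0.33) and NFE2L2 (-0.27), which encodes NRF2, had adjusted p-values under 0.05 below 1.5-fold. ALDH3A1 had 1 count in 1 Liq sample and none elsewhere, and GSTA1, GSTA2, UGT1A1 and UGT1A6 had 0 counts in every sample; genes of the GSTA and UGT1A families share sequence or exons, and the counting leaves out reads that fit more than 1 place or gene.

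Of 10 genes reported to respond to AHR outside drug metabolism, 9 were tested. Among these 5 fell and 0 rose, against 2.16% and 4.29% of all tested genes. Their median was -1.09, against 0.01 over all tested genes. As this list was written with earlier results known, its count and median are no independent evidence. The 5 were IL1B, SERPINB2, EREG, HES1 and PTGS2, of which PTGS2 is named outside the rule, its values having been seen. The first 3 encode a cytokine, a serpin and an EGF receptor ligand. HES1, a repressor downstream of Notch, had 817 and 685 counts in vehicle and 203 and 324 in Liq (log2 fold change -1.64, edgeR adjusted p = 2.713e-11). PTGS2, which encodes COX-2, had 656 and 633 counts against 262 and 402 (-1.09, edgeR adjusted p = 3.104e-08). All 5 stayed called in the 11 alternatives. The cell cycle inhibitor CDKN1B, the adaptor NEDD9, VAV3 and IL6 did not pass the test, and CYP19A1 (aromatase) had 0 counts. The paper treats IL1B and PTGS2 as target genes of the transcription factor NF-κB. It reports that Liq lowered both in ES2 cells by RT-qPCR, and that Liq lowered an NF-κB reporter there. It also reports binding of estrogen receptor beta to the p65 subunit of NF-κB. Overexpression of that receptor lowered NF-κB target genes in SKOV3 cells. In its gene set enrichment of the RNA-seq data, genes lowered by Liq correlated with NF-κB and inflammation signatures. Whether AHR, NF-κB or another factor lies behind the fall of the 5 genes was not tested here.

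The enzymes that open the tryptophan ring, the first step towards kynurenine ligands of AHR, had few or no reads. IDO1 had at most 1 count in a sample and IDO2 had 0, while TDO2 had 0 and 1 counts in vehicle and 2 and 9 in Liq. Of the 9 kynurenine pathway genes in the tables, 5 were tested and 1 rose, against 4.29% of all tested genes. Later enzymes of the pathway were well read, with 911 to 1079 counts of AFMID, 674 to 1065 of CCBL1 and 435 to 631 of AADAT per sample, and these 3 did not pass the test. KYNU (kynureninase) had 3 and 2 counts in vehicle and 12 and 13 in Liq, a ratio of 4.58 with an exact 95% interval of 1.72 to 15.3 for counting error only (edgeR adjusted p = 0.01887). It was not called by DESeq2 or without vehicle replicate 1, vehicle replicate 2 or Liq replicate 1 (highest adjusted p 0.1838). Of the 4 partner proteins of P450 enzymes, 0 were called, and POR, the reductase that supplies their electrons, had a log2 fold change of 0.18 (edgeR adjusted p = 0.1221). Of the 19 other P450 genes of families 1 to 3, only CYP2J2, CYP2R1 and CYP2U1 were tested and 0 were called; CYP2J2 had a log2 fold change of 0.52 (edgeR adjusted p = 0.007074), and 9 of the 19 had 0 counts in every sample.

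**Figure D5:**
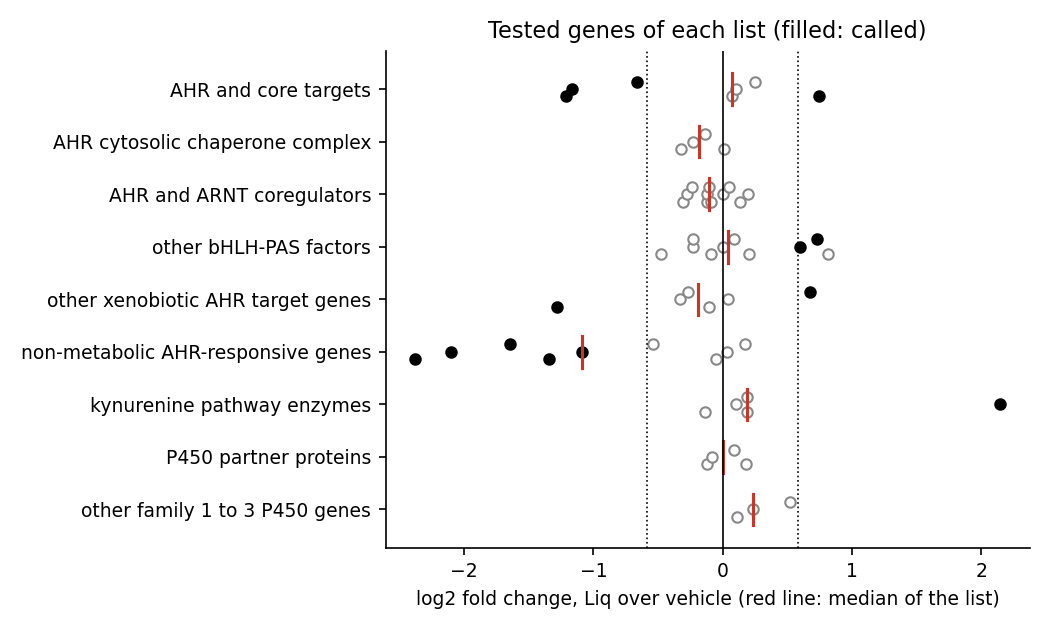
Log2 fold change of Liq over vehicle for each tested gene of the members and of 8 further lists, with filled points for genes called at 1.5-fold and an adjusted p-value under 0.05, dotted lines at 1.5-fold and a red line at the median of each list. The non-metabolic AHR-responsive genes have the lowest median (-1.09) of these lists, which were written with earlier results of these data known. That list includes IL1B and PTGS2, which the paper treats as NF-κB target genes. No gene of the chaperone, coregulator or P450 partner lists is filled.

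The genes whose pattern over the 4 samples lay nearest to that of a called member were found by the Euclidean distance of their log2 CPM, centred on the vehicle mean, among 12220 genes with a mean of at least 1 CPM. For AHRR these were ATP8A2 (distance 0.193), CTGF (0.195) and BHLHE40 (0.21), with log2 fold changes of -1.28, -1.22 and -1.08. For TIPARP the nearest was LOC152225 (0.022), for AHR it was ANGPT1 (0.067) and for CYP1B1 it was again BHLHE40 (0.067). The distance rests on 4 samples in 2 groups, and genes with a change of like size lie near each other by its construction.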

How the data were processed

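Total RNA of ES2 cells was sequenced by the authors on an Illumina HiSeq instrument after TruSeq preparation. Per the labels the reads were processed with bcl2fastq 2.17.1.14, aligned to hg19 with TopHat2 2.0.8b and counted per gene with HTSeq. The deposited values are raw counts, whole numbers that were not normalized or pooled. The gene annotation and strand setting of the counting are not given in the sources used here. The 5 closing lines of each table, which tally reads given to no gene, stayed out of library sizes and tests. The genes held 54.1% to 55.6% of the counts summed over genes and tallies, which need not be all reads sequenced.

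The sample titles gave the groups and replicate numbers, and the paper the dose. The main test was that of edgeR 4.0.16 in R 4.3.3 (filterByExpr with a minimum count of 10 and total of 15, TMM, glmQLFit and glmQLFTest without a block). The SE is the size of the change divided by the square root of F. The fit was run on the whole table, and p-values were adjusted over all tested genes. Counts of replicates differed by more than sampling noise (chi-square per degree of freedom of 6.56 and 11.6), so no samples were merged for the fits. The exact intervals of CYP1A1 and KYNU used counts summed within each group, and so cover counting error only. Log2 ratios within a sample used 2 added counts. Coordinates and lengths are from GENCODE v44 mapped to GRCh37 (hg19), and promoters from RefSeq. Alternatives were 2 other scalings, loess offsets that follow the expression level (span 0.3), 2 other filters, DESeq2 1.42.0, a block for the replicate number, the omission of each sample, and other thresholds. The scripts were tested on simulated data.

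The members and lists were chosen with earlier results of these data known. The genes named are the 9 members, up to 4 genes of each list with the smallest p-value, genes at or near 0 counts, and the genes nearest in pattern. Some genes of the lists are not reported here by name.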

Additional observations from a re-analysis of the deposited data

How the results depend on the processing

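AHR, AHRR and TIPARP kept their direction and their call, and ARNT and ARNT2 their direction and the lack of a call at 1.5-fold, in all 11 other fits. CYP1B1 kept its direction in all 11 and its call in 7. It was lost with the DESeq2 Wald test (log2 fold change -1.226), and the fits that each left out 1 sample gave -1.241 to -1.189. CYP2S1 passed no test, and its sign turned with loess offsets (-0.1418) and among the fits that each left out 1 sample (-0.277 to 0.5612). The cause of these shifts was not tested. The difference in the log2 ratio of CYP1A1 to CYP1B1, 0.10 with 2 added counts, was -0.3384 with 0.5, so no direction is read from it. At a fold of at least 2, 2 members (AHRR and CYP1B1) were called. Over all genes the count of 874 became 566 with DESeq2, 328 at a fold of at least 2 and 1064 with the unadjusted p-value, and that of 3245 genes at any fold ranged from 1413 to 3780 when 1 sample was left out. With the replicate block 898 genes were called, all 4 called members stayed called and ARNT2 had an adjusted p of 0.0238 at 0.25. Samples with the same number share only that number in the labels (correlation of their deviations 0.0483), so this fit is no better founded. Levels per kb moved with the choice of transcript length for 13 of 16 values by more than 1 SD between samples, an alternative added with the data known. Depth limits CYP1A1, CYP1A2, CYP1B1 and CYP2S1, whose counts were at most 33.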
